A study of Danio rerio with 16 samples.

Results

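AB is a long-established laboratory strain of zebrafish, and the whole brains of AB fish were compared here with those of 3 other strains by RNA-sequencing. A gene was called AB-specific when all 4 AB libraries lay above, or all 4 lay below, the whole range of the other 12 libraries. Of the 15304 protein coding genes measured, 815 (5.33%) met this rule, 433 (2.83%) being higher in AB and 382 (2.5%) lower. These genes were chosen by their values in AB and in the other strains, so their sizes of change are a description and carry no test of that contrast.

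The 4 groups were AB and Scientific Hatcheries (SH), which were bought from commercial sources, and High Stationary Behavior (HSB) and Low Stationary Behavior (LSB), lines bred selectively from fish caught in the wild. Fish were aged 17 weeks, and some HSB and LSB fish had taken part in behavioral tests earlier. Each strain had 4 libraries, 2 of females and 2 of males, and each library was made from the pooled brain RNA of 10 fish, so that the spread between libraries is that between pools and not between individuals. Each strain is a single stock, and differences between strains in ancestry, source and years in captivity cannot be told apart.

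Laboratory strains of zebrafish carry many differences in sequence and in the number of gene copies, because the founders of each stock differed and each stock then bred apart. Teleost fish also descend from an ancestor whose whole genome was duplicated, and many genes are therefore present as pairs. Families of immune genes, such as the class I genes of the major histocompatibility complex (MHC) and the fish tripartite motif genes, are known to vary in content from fish to fish. Reads of all strains were counted against a single reference genome, so that a strain difference in RNA level and one in how well a strain's own sequence aligns cannot be told apart. In bulk tissue, fewer cells of a type and less RNA per cell cannot be told apart either.

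Values are CPM (counts scaled to library size), the reads on a gene scaled to a sum of 1000000 per library. The AB libraries held 23064223 to 34883159 reads on genes, within the 18398865 to 35737825 of all 16 libraries, and a single read was worth 0.0280 to 0.0544 CPM. Differences are on the log2(CPM + 0.5) scale, AB minus the mean of the 3 other strain means, with the standard error (SE) of a linear model over all 16 libraries. On this scale 1 is a 2-fold change at high CPM, and changes at low CPM are understated. The median difference over all genes was -0.002. Markers of neurons, radial glia and myelin were abundant in AB, with summed levels inside the range of the other strains for neurons (7080 to 7220 CPM) and for myelin (37200 to 44800 CPM). Replicate pools differed most in LSB females (chi-square of 14.4 for each degree of freedom) and AB males (13.4). The authors left 1 LSB female library out of their network analyses as an outlier, and both were kept here. Without LSB female replicate 2, 962 genes met the rule. Without both LSB libraries numbered 2, 1057 genes met the rule, and without AB male replicate 2, 1058 did; leaving out a library can only add genes.

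The same rule applied to each strain gave 2512 genes in SH (1885 higher), 848 in LSB (313 higher) and 508 in HSB (257 higher). AB therefore had far fewer such genes than SH, a number near that of LSB, and more than HSB. Its genes were divided almost evenly between the directions. Values were not rescaled for these counts, and the median difference over all genes was 0.056 for SH, -0.041 for LSB and -0.011 for HSB. The part of these shifts in the counts and in their directions was not tested. The counts of SH, LSB and HSB were not repeated with rescaled libraries or with libraries left out, so the order of AB and LSB is not settled. Of the AB-specific genes that were higher, the nearest strain mean was that of HSB for 161, SH for 154 and LSB for 118. Of those that were lower, it was that of HSB for 140, LSB for 125 and SH for 117. No strain was the nearest for most of the genes in either direction.

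**Figure D1:**
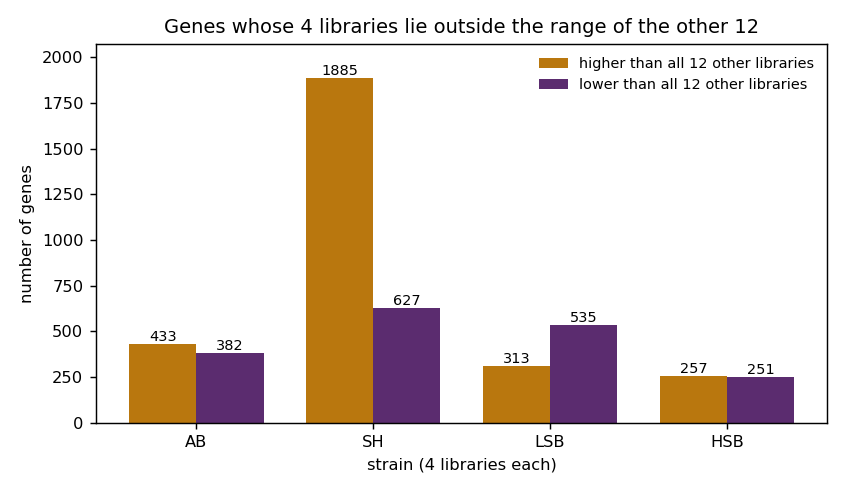
Number of genes (vertical axis) for which all 4 libraries of a strain were higher or lower than all 12 libraries of the other strains. The bars for AB stand at 433 higher and 382 lower, and SH has the tallest bar with 1885 higher.

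Most AB-specific changes were small. The genes that were higher had a median difference of 0.42 (lower and upper quartiles 0.27 and 0.64), and those that were lower had a median absolute difference of 0.44 (0.28 and 0.69), against 0.09 over all genes. On the log2(CPM + 0.5) scale, 50 genes were higher and 51 lower by more than 1. By more than 2, 11 were higher and 10 lower, and by more than 3, 4 were higher and 5 lower. These steps are not folds of mean CPM. The AB mean of chrna10 was 10.7 times that of the other libraries at a difference of 2.15. That of si:ch211-114l13.1 was 4.21 times at a difference of 3.23. The gap between the AB libraries and the nearest other library had a median of 0.07 in each direction. At the edge of the rule, mtpn, which encodes myotrophin, was a member with an AB maximum and a minimum in the other strains that both came to 355 CPM. CLSTN2 (2 of 2) was a member with both of these values at 7.88 CPM. Just outside the rule, BX510999.1 had an AB maximum and a minimum elsewhere that both came to 1.99 CPM. The gene zgc:194221 was listed at 0 in all 4 AB libraries but also in 2 HSB libraries, and reached 5.06 CPM in SH.

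The largest increase was that of MYRFL, which encodes a relative of the myelin regulatory factor. The female AB libraries held 3.70 and 10.2 CPM and the male AB libraries 7.22 and 6.55 CPM, whereas the other 12 libraries had a lowest value of 0, a median of 0.0331 and a highest value of 0.138 CPM. Every AB library was thus far above libraries in which the gene had few reads or none, and the difference was 3.67 ± 0.18 (SE). The lowest AB library lay 2.72 above the highest other library, the widest gap among the genes higher in AB. Markers of myelin moved little beside it, with a median difference of 0.04 over 14 genes, none of which was AB-specific.

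A receptor subunit gene and tripartite motif genes were also among the 12 largest increases. The gene chrna10, which encodes a subunit of nicotinic acetylcholine receptors, had 3.12 and 2.41 CPM in female and 3.24 and 2.86 CPM in male AB libraries, against a lowest of 0.0935, a median of 0.289 and a highest of 0.371 CPM elsewhere. The groups were separated by 1.74, with a difference of 2.15 ± 0.12 (SE). The gene ftr02 belongs to the finTRIM family, tripartite motif proteins that expanded in fish and are known for roles in responses to virus. It stood at 3.73 and 2.98 CPM in female and 3.59 and 3.64 CPM in male AB libraries, and at 0.158 to 0.560 CPM with a median of 0.343 in the other strains. No library of another strain came near the AB values, and the difference was 2.26 ± 0.12 (SE). Its relative trim35-1 had 2.75 and 3.32 CPM in female and 3.49 and 2.34 CPM in male AB libraries, and reached at most 1.55 CPM elsewhere, in HSB (median 0.232 CPM, lowest value 0). Its difference was 1.99 ± 0.14 (SE).

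For several of the largest increases the other strains did not form a single level. The uncharacterized gene si:ch211-114l13.1 had 28.4, 28.4, 27.2 and 28.5 CPM in the AB libraries, 17.1 to 18.6 CPM in HSB, 1.49 to 2.96 CPM in LSB and 0.0560 to 0.0935 CPM in SH. All 4 strains were separate from each other, so that its difference of 3.23 ± 0.10 (SE) averages over a nearest strain, HSB, whose mean was 17.7 CPM. CABZ01034702.1 had 7.54, 11.7, 10.2 and 8.54 CPM in AB, 1.5 to 4.50 CPM in SH and at most 0.214 CPM in LSB and HSB. CR788231.1 had the same order, with 4.87, 7.02, 5.23 and 4.60 CPM in AB, 1.96 to 2.81 CPM in SH and at most 0.260 CPM in LSB and HSB. In both genes the other commercial strain was the nearest to AB, and the lines from wild fish were close to 0.

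Further large increases also varied across the other strains. RBM22 (3 of 3), a copy of a splicing factor gene, differed by 2.32 ± 0.16 (SE). It had 2.35, 4.11, 3.10 and 2.04 CPM in AB, 0.316 to 0.866 CPM in LSB and at most 0.084 CPM in SH and HSB. Summed with the only other model of this name among the genes analysed here, it overlapped, at 3.58 to 4.53 CPM in AB and 0.557 to 4.36 CPM elsewhere. The uncharacterized gene si:dkey-240n22.6 had 10.5 to 16.0 CPM in AB and 0.257 to 3.01 CPM elsewhere (median 0.654). The gene zgc:171679 had 41.3, 39.9, 41.8 and 41.6 CPM in AB and 3.16 to 21.9 CPM elsewhere (median 8.28). The AB libraries were tightly grouped in that gene, while the other strains spread widely below them.

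**Figure D2:**
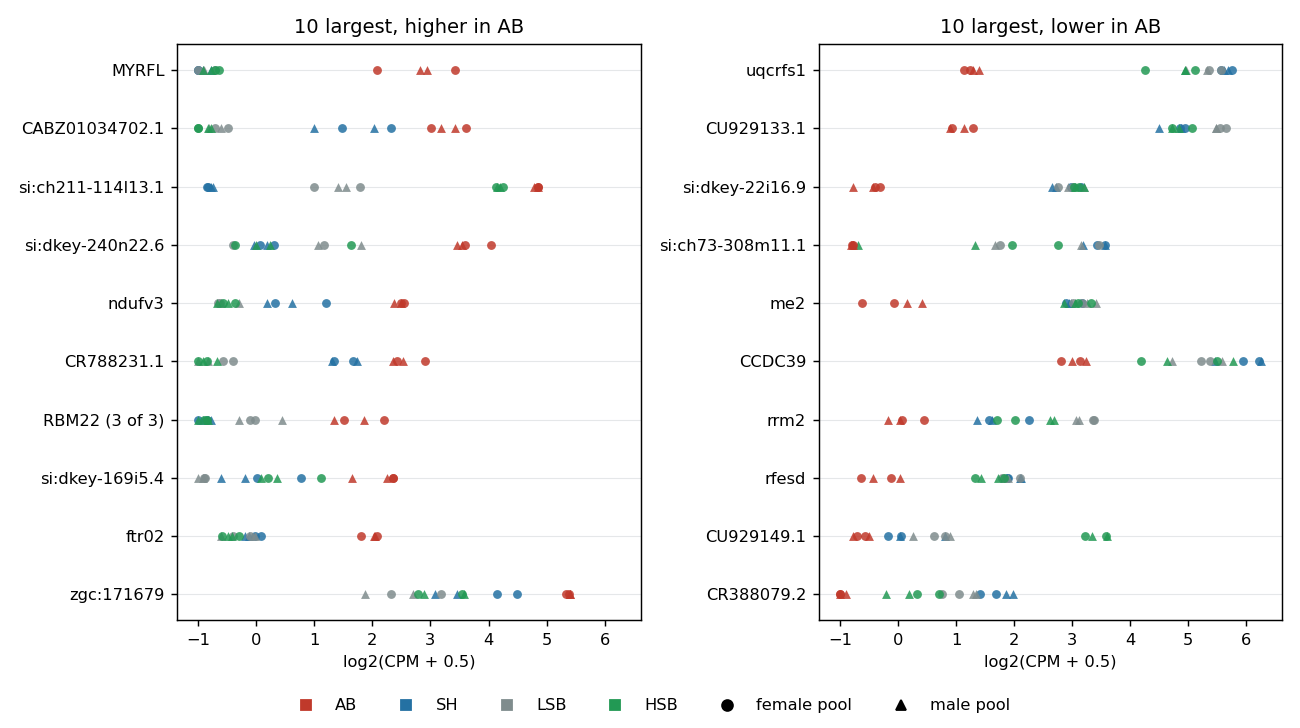
Level of the 10 genes with the largest increase (left) and the 10 with the largest decrease (right) in AB, as log2(CPM + 0.5) on the horizontal axis, with 1 symbol per library. Colours give the strain, circles female and triangles male pools. In every gene the 4 AB symbols lie beyond all 12 others, as the rule requires, with gaps as wide as 2.72 for MYRFL and 3.20 for CU929133.1.

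The largest decreases were those of CU929133.1 and of a copy of uqcrfs1, each with a difference of -3.99. CU929133.1 is annotated as selenoprotein L, a selenium-containing protein known from fish and other aquatic animals. It had 1.40 and 1.96 CPM in female and 1.36 and 1.69 CPM in male AB libraries, against a lowest of 22.1, a median of 29.5 and a highest of 50 CPM elsewhere. The AB mean was 4.72% of the mean of the other libraries, and the gap of 3.20 was the widest of all AB-specific genes. A second gene model of this name did not offset it: summed over both models, AB had 5.76 to 6.89 CPM and the other strains 31.1 to 56.0 CPM.

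The uncharacterized gene si:dkey-22i16.9 was nearly absent from AB, with 0.258, 0.302, 0.244 and 0.0867 CPM in its 4 libraries against 5.80 to 8.74 CPM elsewhere (median 7.63). Its AB mean was 2.98% of that of the other strains, which were close to each other. CCDC39 is known in mammals for the assembly of the arms that move cilia. It had 6.48, 8.34, 7.53 and 8.93 CPM in AB and 17.7 to 76.2 CPM elsewhere (median 44.1), with a difference of -2.36 ± 0.23 (SE). All AB libraries were low, and the nearest libraries, those of HSB, varied widely (17.7 to 53.9 CPM). The gene rfesd, which encodes a protein with a Rieske iron-sulfur domain, had 0.143, 0.415, 0.244 and 0.520 CPM in AB and 2.01 to 3.86 CPM elsewhere. Its sum over both models of this name did not overlap either, at 3.70 to 4.86 CPM in AB and 6.06 to 8.99 CPM elsewhere.

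In 3 AB-specific genes every AB library was at 3 reads or fewer, and the sizes of their differences depend on the constant added before the logarithm. CR388079.2 was at 0 in 3 AB libraries and at 0.0349 CPM, a single read, in AB male replicate 1, whereas it had 0.368 to 3.46 CPM elsewhere. The gene si:ch73-308m11.1 had 0.0698 to 0.0867 CPM in AB and reached 11.4 CPM in SH, but its lowest value outside AB, 0.123 CPM in HSB male replicate 1, was close to the AB level. The third, zgc:112970, had 0 to 0.0377 CPM in AB and 0.759 to 3.30 CPM elsewhere. No AB-specific gene was the reverse case, with all 12 other libraries at 3 reads or fewer.

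Pairs of gene models that share a name were found among both small and large changes. Such same-named copies made up 9.52% of all genes and 13% of AB-specific genes (106 of 815), and the share was 9.26% (44 of 475) below a difference of 0.5, 14.2% (34 of 239) from 0.5 to 1 and 27.7% (28 of 101) above 1. In 18 names, 1 copy was AB-specific and higher while another was AB-specific and lower. These names were singled out after their values had been seen. They include genes of respiration (uqcrfs1, ndufv3), of metabolism and nucleotide synthesis (me2, rrm2), of splicing (sf3b3), of chromatin (h2afy2) and of inhibitory synapses (GABRA2). The copies were not compared in sequence. A change of RNA from each copy and a change in the copy to which reads were assigned cannot be told apart in these values.

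The widest contrast was in uqcrfs1, which encodes the Rieske iron-sulfur subunit of complex III of the respiratory chain. The copy ENSDARG00000077402 had 1.86 and 1.7 CPM in female and 2.13 and 1.95 CPM in male AB libraries, but 18.6 to 53.7 CPM elsewhere (median 40.3), a difference of -3.99 ± 0.12 (SE). The copy ENSDARG00000007745 had 73.8 and 67.8 CPM in female and 72.4 and 68.5 CPM in male AB libraries, against 34.2 to 58.5 CPM elsewhere (median 46.0), a difference of 0.59 ± 0.06 (SE). Neither copy overlapped between the groups, which the rule required of both. The sum of both copies did overlap, at 69.5 to 75.7 CPM in AB and 74.7 to 95.5 CPM elsewhere, with a difference of -0.25.

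The other respiratory gene, ndufv3, encodes an accessory subunit of complex I. Its copy ENSDARG00000090389 had 5.10, 5.36, 5.13 and 4.68 CPM in AB and at most 1.79 CPM elsewhere (median 0.244). Its copy ENSDARG00000069942 had 7.14, 4.94, 6.63 and 6.24 CPM in AB and 8.31 to 13.7 CPM elsewhere (median 11.7). The copies thus differed by 2.64 ± 0.15 (SE) and -0.81 ± 0.08 (SE), and their sum, 10.3 to 12.2 CPM in AB and 10.1 to 13.8 CPM elsewhere, overlapped with a difference of -0.06.

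Malic enzyme 2, encoded by me2, makes pyruvate from malate in mitochondria. One copy (ENSDARG00000086153) had 0.459, 0.151, 0.837 and 0.607 CPM in AB and 6.75 to 10.1 CPM elsewhere, a difference of -3.13 ± 0.13 (SE). The other (ENSDARG00000015453) had 16.0, 18.9, 14.8 and 16.9 CPM in AB and 3.43 to 8.51 CPM elsewhere, a difference of 1.39 ± 0.07 (SE). Their sum was 15.7 to 19.0 CPM in AB and 11.4 to 16.6 CPM elsewhere. The gene rrm2 encodes the small subunit of ribonucleotide reductase, which makes the building blocks of DNA. Its copies differed by -2.30 ± 0.18 (SE) and 1.2 ± 0.17 (SE), and their sum by 0.22, with 9.20 to 14.1 CPM in AB and 6.55 to 15.3 CPM elsewhere.

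Over the 18 names, the summed CPM of AB overlapped that of the other strains in 14, where no sum differed by more than 0.25. Over all names the sums overlapped in all but 743 of 14550, so overlap alone does not set these names apart. Names chosen for copies in opposite directions also have changes that offset each other in the sum. In sf3b3, a component of the splicing machinery, the copies differed by -1.36 and 0.83 and the sum by -0.06. In csnk1a1, which encodes casein kinase 1 alpha, they differed by -1.35 and 0.68 and the sum by -0.12. The sums did not overlap in the other 4 names, clstn2 (0.36), GABRA2 (0.60), SMIM13 (-0.35) and spop (0.26). GABRA2 encodes an alpha subunit of the GABA-A receptor, and its copy (1 of 3) had 12 to 14.5 CPM in AB against 5.23 to 7.69 CPM elsewhere, while its copy (2 of 3) had 1.66 to 2.30 CPM against 2.62 to 4.70 CPM. Summed over the models analysed here (1 of 3 and 2 of 3), GABRA2 stood at 13.8 to 16.8 CPM in AB and 8.44 to 11.9 CPM elsewhere.

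**Figure D3:**
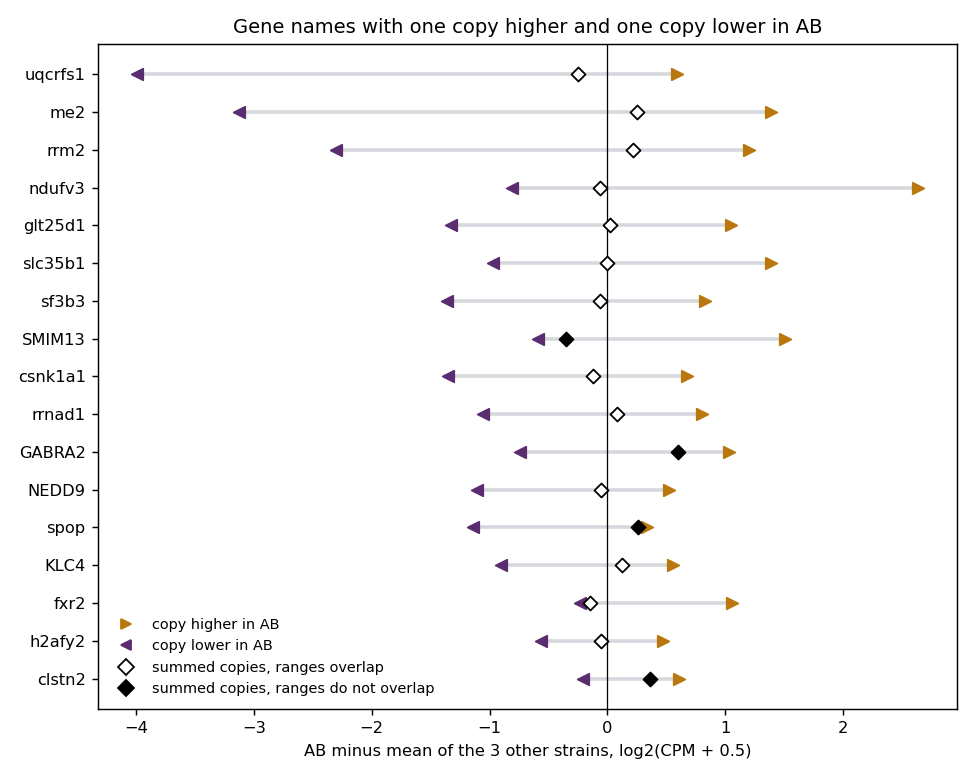
Difference between AB and the mean of the 3 other strains on log2(CPM + 0.5) (horizontal axis) for 17 gene names with 1 copy higher and 1 copy lower in AB. Triangles are the copies and diamonds their summed CPM, open where the ranges of AB and the other libraries overlap; the 13 open diamonds lie between -0.25 and 0.25, while copies reach from -3.99 to 2.64.

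Names with more than 1 copy were not all of this kind. In 3 names several copies were AB-specific in a single direction, as in FIG4, where both copies were higher and the sum was 27.9 to 30.1 CPM in AB against 22.1 to 27.1 CPM elsewhere. In 64 names only a single copy was AB-specific, and the sum over copies overlapped in 48 of them. When CPM was summed over gene models of each name, a choice made after seeing the data, 743 of 14550 names met the rule (397 higher and 346 lower). Gene models with only a clone-based name were 15.2% of all genes, 20.6% of AB-specific genes and 38.6% of those with an absolute difference above 1.

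A linear model (limma) asked of all genes, and not only of the AB-specific ones, whether AB differed from the mean of the other strains. It called 3611 of 15304 genes (23.6%) at an adjusted p under 0.05, 1711 higher (11.2%) and 1900 lower (12.4%). The comparisons with single strains gave 5629 calls against SH, 3943 against LSB and 2844 against HSB. These comparisons share the AB libraries. There were 369 genes called higher and 412 called lower in AB than in each of the 3 strains. Groups of genes are described next by their limma calls, beside these shares of all genes, and by their AB-specific members. A percentage given after the calls of a list counts both directions together, to be set beside the 23.6% of all genes. Numbers of AB-specific members in a list are to be set beside the 5.33% of all genes. Adjusted p-values are from limma with the Benjamini-Hochberg method over all genes, and none is given for AB-specific genes.

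Genes of oxidative phosphorylation (OXPHOS), which make ATP in mitochondria, were called lower in AB more often than higher. Of 59 measured, 8 had a difference above 0, and the median was -0.10. Limma called 4 higher and 13 lower, together 28.8% against 23.6% of all genes. Of the AB-specific members, 2 were higher, 1 copy each of uqcrfs1 and ndufv3, and the other copies of these were lower. The AB-specific members lower in AB, besides the copies of uqcrfs1 and ndufv3, were NDUFB3, ndufa1 and ndufv1 of complex I, sdhb of complex II and atp5a1 of the ATP synthase. NDUFB3 had 65.8 to 72 CPM in AB and 82.2 to 104 CPM elsewhere, and sdhb had 166 to 189 CPM and 199 to 298 CPM. The catalytic subunit gene atp5a1 had 945 to 976 CPM in AB and 979 to 1240 CPM elsewhere, so its groups were close although they did not overlap. Whether they overlapped after rescaling was not checked. Among genes that were not AB-specific, cox7c fell by 0.28 ± 0.07 (SE, adjusted p = 0.0106) and cox5aa, a subunit of complex IV, rose by 1.26 ± 0.12 (SE, adjusted p = 1.76e-06). Leaving out AB female replicate 2 lowered the calls for lower genes from 13 to 8, and leaving out LSB male replicate 2 raised them to 21.

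Heat shock proteins and chaperones, which fold other proteins, were likewise called lower more often than higher. Of 29 measured, 6 had a difference above 0, with a median of -0.10, and 2 were called higher and 12 lower (48.3%). The 3 AB-specific members were all lower, and 2 of them, hspd1 and hspa9, encode the main chaperones of the mitochondrial matrix. The gene hspa9 had 452, 420, 428 and 423 CPM in AB and 475 to 557 CPM elsewhere (median 516), a difference of -0.26 ± 0.03 (SE). The gene hspd1 had 152, 134, 152 and 153 CPM in AB and 154 to 188 CPM elsewhere (median 164). It overlapped once the libraries were rescaled, so its place among the AB-specific genes rests on the scaling. The other chaperone, hspa13, had 23.2 to 25.1 CPM in AB and 25.5 to 32.1 CPM elsewhere. In the same list, hspe1, the partner of hspd1, fell by 0.18 ± 0.06 (SE, adjusted p = 0.0339), and dnajb1a rose by 0.30 ± 0.07 (SE, adjusted p = 0.00558). Without AB female replicate 1, or without AB female replicate 2, the number called lower was 7.

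Genes of the interferon response, which cells switch on against viruses, included 2 AB-specific genes, both lower. The gene isg15 encodes a ubiquitin-like protein, and it had 2.55 and 1.32 CPM in female and 1.12 and 2.12 CPM in male AB libraries against 4.26 to 10.9 CPM elsewhere (median 6.88), a difference of -1.81 ± 0.19 (SE). The gene ifih1 encodes the sensor of viral RNA known as MDA5, and it had 3.30 and 3.55 CPM in female and 3.10 and 3.17 CPM in male AB libraries against 4.70 to 10.1 CPM elsewhere (median 7.26), a difference of -0.98 ± 0.07 (SE). In both genes all AB libraries were lower than any other, as the rule requires. Of 22 genes in the list, 2 were called higher and 6 lower (36.4%), with a median difference of -0.23. The antiviral GTPase mxe fell by 0.85 ± 0.17 (SE, adjusted p = 0.00182) and irf7, a transcription factor of the response, fell by 0.37 ± 0.11 (SE, adjusted p = 0.0216), while eif2ak2 rose by 0.25 ± 0.08 (SE, adjusted p = 0.0356). Between 3 (without AB female replicate 1) and 8 genes were called lower when single libraries were left out, and between 0 and 2 higher.

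Antigen presentation genes moved in both directions. The class I gene mhc1uba had 18.4 and 21.9 CPM in female and 23.6 and 22.8 CPM in male AB libraries, against 32.9 to 113 CPM elsewhere (median 38.9). SH was far above the rest with 90.3 to 113 CPM, and the AB range lay below that of LSB (34.0 to 38.2 CPM) and HSB (32.9 to 49.4 CPM). The difference was -1.26 ± 0.09 (SE). The peptide-trimming enzyme gene erap2 was lower, with 12.3 to 15.2 CPM in AB and 17.0 to 26.6 CPM elsewhere, and b2ml, which encodes a light chain of class I molecules, was higher, with 1060 to 1190 CPM against 881 to 1030 CPM. Of 19 genes in the list, 2 were called higher and 3 lower (26.3%), a share near that of all genes. The number called lower was 5 without AB female replicate 2 and also without HSB female replicate 2.

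Tripartite motif genes included 7 AB-specific members of 48 measured (14.6%, against 5.33% of all genes), 5 higher and 2 lower. Besides ftr02 and trim35-1, ftr12 was higher, with 2.38 to 3.07 CPM in AB and 0.970 to 1.84 CPM elsewhere, as were trim2a and trim23. Lower in AB was trim105, with 4.41, 5.28, 3.84 and 5.64 CPM against 7.47 to 13.2 CPM elsewhere (median 10.3), together with trim13. The model called 12 genes of this family higher and 6 lower (37.5%), with a median difference of 0.01, and without AB female replicate 2 these counts were 8 and 4. The family therefore held changed genes of both directions and no common shift.

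Receptors and transporters of synapses gave a mixed picture. Among 26 genes for GABA and glycine receptor subunits, 2 were AB-specific and higher and 2 lower (15.4%, against 5.33% of all genes). In each direction 1 of these was a copy of GABRA2, described above. Limma called 3 higher and 2 lower (19.2%), or 4 each without LSB female replicate 2. The gene gabrd encodes the delta subunit found in receptors outside synapses, and it had 625, 625, 610 and 637 CPM in AB and 661 to 840 CPM elsewhere (median 712). The gene gabrp had 7.02 to 8.03 CPM in AB and 4.78 to 6.81 CPM elsewhere. Both gabrd and gabrp overlapped with other libraries after rescaling. The glycine transporter gene slc6a5 was higher, with 8.60 to 9.02 CPM in AB, 7.56 to 7.88 CPM in SH and 2.84 to 3.55 CPM in HSB. Summed over both models of this name it overlapped, at 13.8 to 14.4 CPM in AB and 10.3 to 16.0 CPM elsewhere. Of 37 glutamate receptor genes none was AB-specific, and 3 were called higher and 2 lower (13.5%). Those counts were 4 and 4 without LSB female replicate 2, 6 and 2 without LSB male replicate 2, and 1 and 1 without AB female replicate 1 or AB male replicate 2.

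Enzymes of detoxification and redox defence were called in both directions. Of 31 cytochrome P450 genes, 6 were called higher and 10 lower (51.6%), and the AB-specific ones were cyp7c1, which was higher, and cyp2ad3 and cyp2v1, which were lower. Levels of cyp2ad3 were 20 to 23.0 CPM in AB and 24.8 to 43.9 CPM elsewhere. Of 33 genes for glutathione and redox defence, 4 were called higher and 7 lower (33.3%), but only 4 lower without AB female replicate 2. Among these, gsto1, a glutathione transferase, had 75.5 to 84.0 CPM in AB against 46.1 to 72.6 CPM elsewhere, and txnrd1, thioredoxin reductase, had 102 to 106 CPM against 109 to 122 CPM. Catalase, encoded by cat, had 136 to 143 CPM in AB and 147 to 175 CPM elsewhere, and overlapped after rescaling.

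Of 11 tubulin genes, 4 were called higher and 3 lower (63.6%). Without AB female replicate 1, or without AB male replicate 1, 2 were called higher and 3 lower. The AB-specific ones were tubd1, a delta tubulin, which was higher, and tuba1b, an alpha tubulin, which was lower. Levels of tubd1 were 6.11 to 7.19 CPM in AB and 3.19 to 5.0 CPM elsewhere. The gene tuba1b had 55.7 and 37.3 CPM in female and 55.8 and 57.7 CPM in male AB libraries. The other strains had 59.7 to 154 CPM (median 108), HSB being the nearest with 59.7 to 70.5 CPM. The summed CPM of all 11 tubulin genes was 3150 to 3380 in AB, inside the 2810 to 3420 of the other strains. Of 19 galectin and annexin genes, 3 were called higher and 6 lower (47.4%), or 5 to 7 lower with single libraries left out. AB-specific were 3 of the 19 (15.8%, against 5.33% of all genes). These were the galectin genes lgals2a (131 to 138 CPM in AB and 68.9 to 119 CPM elsewhere), lgalsla (12.9 to 15.1 and 15.6 to 28.0 CPM) and lgals1l1 (2.06 to 3.09 and 4.29 to 22.8 CPM). The first was higher and the others lower in AB.

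Several other lists held few AB-specific members or none. The gene glula, which encodes the glutamine synthetase of radial glia, had 3240 and 3240 CPM in female and 3030 and 3750 CPM in male AB libraries against 2190 to 2990 CPM elsewhere, but overlapped after rescaling. The summed level of 10 radial glia markers, 10300 to 11800 CPM, lay inside the 9940 to 13400 CPM of the other strains. In the glycolysis list, hk2 was lower (2.58 to 3.32 against 3.55 to 5.70 CPM) and aldocb was lower by 0.15 (2940 to 3000 against 3070 to 3540 CPM), the latter overlapping after rescaling. Lists of neurons, myelin, the proteasome, cytosolic ribosomal proteins, the circadian clock, immediate early genes, feeding peptides, monoamine synthesis, thyroid and steroid hormones, and homeobox genes held no AB-specific gene. The share of all genes that were AB-specific was 5.33%, so a short list can hold none without standing out. Limma called 3 of 13 neuron genes, all lower (23.1%), near the 23.6% of all genes. It called 18.4% of feeding peptide, 14.8% of immediate early, 10.5% of clock and 10.3% of monoamine genes. The shares were 7.41% for hormone genes and 7.14% for myelin genes. They were lowest for the proteasome (1 of 32, 3.12%), homeobox genes (2 of 62, 3.23%) and ribosomal proteins (4 of 67, 5.97%). With single libraries left out, 0 to 2, 0 to 2 and 1 to 4 genes were called higher in the proteasome, homeobox and ribosomal lists. Those called lower numbered 0 to 3, 1 to 2 and 0 to 3.

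**Figure D4:**
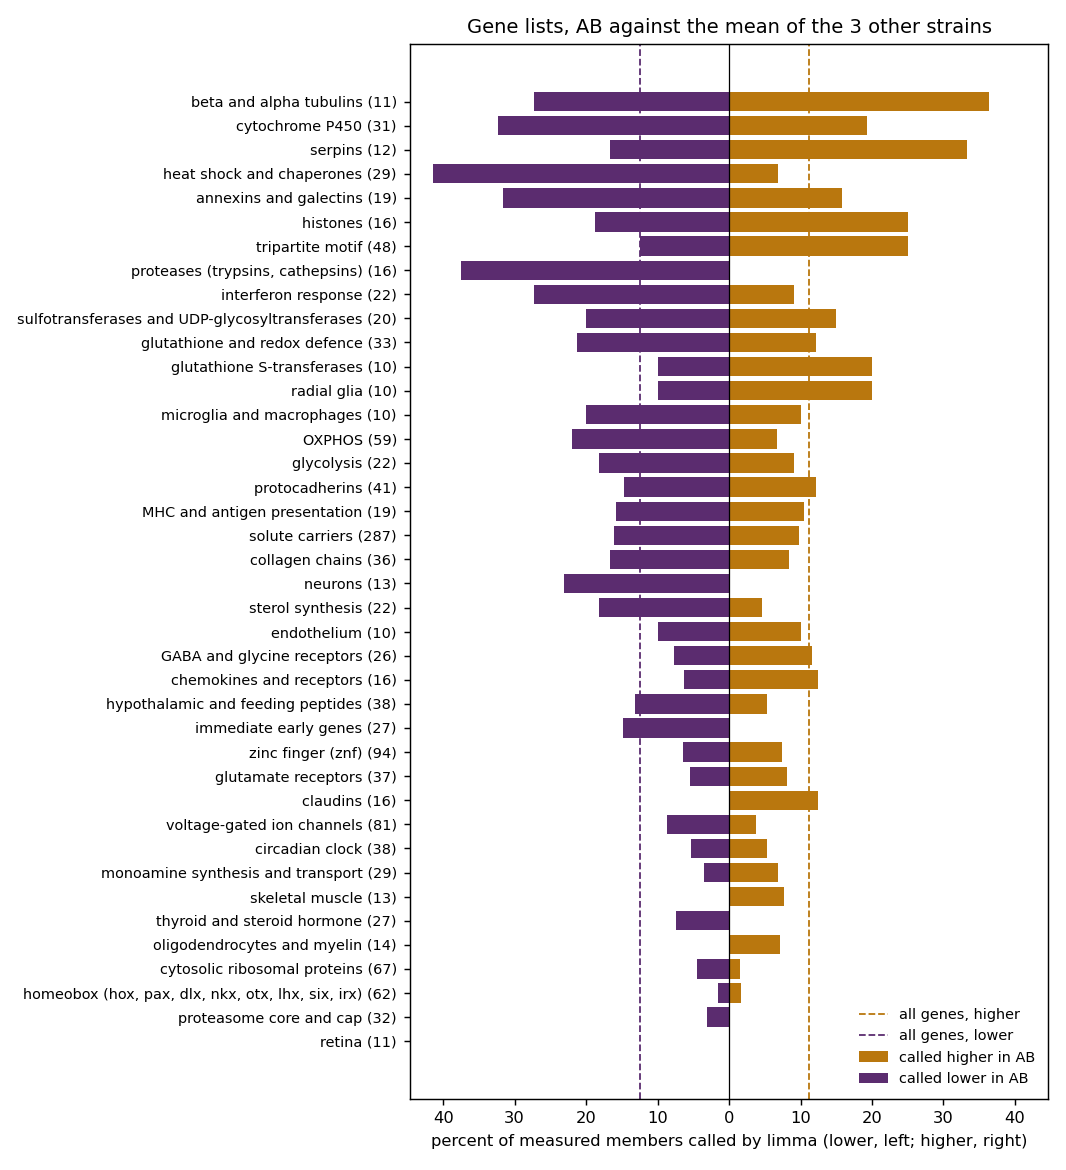
Percent of the measured members of each list with at least 10 members (number in parentheses) that limma called higher (right) or lower (left) in AB than in the mean of the other strains. Dashed lines give the shares of all genes, 11.2% higher and 12.4% lower; heat shock genes reach furthest to the left (12 of 29) and tubulins furthest to the right (4 of 11).

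Further named genes changed by more than 2-fold, and the following were picked after their values had been seen. The gene smc1a, which encodes a core subunit of the cohesin ring that holds chromosomes, had 26.7, 26.1, 28.1 and 23.2 CPM in AB and 57.2 to 141 CPM elsewhere (median 79.3). The highest AB library lay 1.01 below the lowest other library on the log2 scale, with a difference of -1.68 ± 0.11 (SE). ITGAL, an integrin subunit of white blood cells, had 44.5 to 52.5 CPM in AB and 8.28 to 33.9 CPM elsewhere, and fah, the last enzyme of tyrosine breakdown, had 32.7 to 36.0 CPM and 10.5 to 26.3 CPM. Lower in AB was tfr1b, a transferrin receptor (10.0 to 11.9 against 17.4 to 48.4 CPM), although its sum over both models of this name overlapped (37.6 to 47.4 against 40.5 to 110 CPM). Also lower were cthl, of the family of enzymes that make cysteine (4.42 to 5.50 against 9.73 to 18.5 CPM) and grp, which encodes gastrin-releasing peptide (0.373 to 0.650 against 1.18 to 2.42 CPM). The glycogen enzymes pygl and epm2a were lower as well, although pygl reached 3.67 CPM in AB and fell to 3.86 CPM in LSB.

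Markers of other tissues differed between the AB libraries themselves. The 13 skeletal muscle genes summed to 161 and 156 CPM in the female AB libraries, 287 CPM in AB male replicate 1 and 2990 CPM in AB male replicate 2, against 147 to 768 CPM elsewhere. The single AB library thus stood far above all 15 others. No gene of the list was AB-specific, but the muscle genes tcap (10.9, 7.85, 8.93 and 18.4 CPM in AB, and 2.32 to 6.98 CPM elsewhere) and pgam2 (2.32, 2.83, 2.83 and 6.76 CPM, and 0.822 to 1.59 CPM elsewhere) were. Both were highest in AB male replicate 2. That both lay above the other strains in the remaining AB libraries too follows from the rule that chose them. Retina markers ranged from 34.5 to 132 CPM in AB and from 23.1 to 175 CPM elsewhere, and 6 blood markers from 2130 to 2540 CPM and from 1920 to 4210 CPM. Among 10 markers of microglia and macrophages, 3 had a difference above 0, with a median of -0.11. Limma called 1 of them higher and 2 lower. Their summed level was 311 to 338 CPM in AB. It lay above SH (265 to 284 CPM) and below LSB (385 to 446 CPM) and HSB (387 to 458 CPM). Of these markers, lcp1 was AB-specific and higher (7.73 to 9.40 against 3.49 to 6.84 CPM). The marker csf1ra fell by 0.43 ± 0.08 (SE, adjusted p = 0.00118). The part of these tissues in the AB-specific genes was not tested.

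Some AB-specific genes were neighbours. Of the genes, 11582 (75.7%) could be placed in the gene order of a reference assembly, among them 578 AB-specific genes, and 78 of these (13.5%) had an AB-specific gene next to them. Of the other 11004 placed genes, 1037 (9.42%) had one. The groups of 3 or more neighbours numbered 3, with 10 genes. One held si:dkey-169i5.4 (2.32), zgc:171679 (2.21) and si:dkey-49n23.1 (0.55), all higher. Another held the organic anion transporter gene slco1d1 (0.26), si:ch73-389k6.1 (0.53) and zgc:171673 (0.53), also all higher. The authors counted reads with HTSeq in its union mode, and the effect of this mode at overlapping neighbours was not examined. The assembly used for the order is not the one used for counting.

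Females and males of AB had the same AB-specific genes by construction, since the rule used the values of both sexes. A comparison of the sexes within these genes therefore cannot show that the sexes were alike in them. The sex difference in AB was set against the mean sex difference of the other strains for every gene, and limma found no gene that differed (0%) at an adjusted p under 0.05, with 857 genes at an unadjusted p under 0.05. Of the AB-specific genes, 41 of 815 (5.03%) had an unadjusted p under 0.05, against 5.6% of all genes, and the median absolute difference between males and females of AB was 0.066 in both sets. The count rested on single libraries: it was 47 genes without AB male replicate 1 and 25 without LSB female replicate 1.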

How the data were processed

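Whole-brain RNA of zebrafish was sequenced for 4 strains, with 2 pools per strain and sex. The authors aligned reads to Zv9 with GSNAP after CASAVA 1.7, counted them per gene with HTSeq, and deposited CPM values for 15304 genes, scaled to the total of each library. All 16 columns were assigned by strain, sex and replicate in their names; 0 other columns were present. In every library, 100% of the non-zero values checked, which left out the highest ones, were whole multiples of a single read (tolerance 0.1 read). The size of a single read gave the depth and the read numbers of nearly absent genes. Tests on counts, such as those of edgeR, which the authors used, were not run, since the filtered table holds fewer low values than were required for them.

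Values were compared as log2(CPM + 0.5) without further scaling or filter. The linear models were those of limma 3.58.1 (R 4.3.3), with an intensity trend in eBayes, fitted with strain and sex as terms, and with the 8 groups of strain and sex for the sex comparison, at an adjusted p of 0.05 (Benjamini-Hochberg). Python 3.11.15, numpy 2.4.6, pandas 2.3.3, scipy 1.17.1 and matplotlib 3.10.9 did the rest. The code was tested on simulated data. Pools of a group differed by more than sampling noise (chi-square over its degrees of freedom 4.99 to 14.4), and p-values measure the spread between pools.

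Named genes are the 12 AB-specific genes with the largest difference and the 3 with the widest gap in each direction, up to 4 AB-specific members of each list, runs of at least 3 neighbours, and the 2 genes nearest the rule's edge on each side. The other genes named, including further list members and same-named copies, were chosen after their values were seen. Same-named copies ignore case and suffixes such as (1 of 2). A result for 1 gene name is not reported here. Members and lists were chosen with earlier results of these data known. Gene order came from RefSeq's GRCz12tu assembly, matched by symbol and identifier and used for no coordinates. Alternatives were rescaling by median ratio, a mean CPM of at least 1, other added constants, no trend, a replicate block, ranges within each sex, and leaving out libraries or strains.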

Additional observations from a re-analysis of the deposited data

Results flagged for a closer look

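In 11 of 122 values examined over the 4 AB libraries, 1 library stood apart from the other AB libraries by Dixon's ratio, the gap to the nearest library divided by the whole range, taken on log2(CPM + 0.5). Chance alone passes the 95% limit of this ratio in about 1 of 20 groups. The library was AB female replicate 2 for 5 of them, AB male replicate 1 for 3, AB male replicate 2 for 2 and AB female replicate 1 for 1.

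AB female replicate 2 was the lowest AB library for hspd1 (134 CPM against 152 to 153 in the others, ratio 0.963), tuba1b (37.3 against 55.7 to 57.7 CPM, ratio 0.92) and ftr02 (2.98 against 3.59 to 3.73 CPM, ratio 0.834). It was the highest for PRSS23 (17.4 against 15.1 to 15.3 CPM, ratio 0.896) and ZNF473 (1 of 3) (3.09 against 2.62 to 2.69 CPM, ratio 0.839). AB male replicate 1 was the lowest for si:ch211-114l13.1 (27.2 against 28.4 to 28.5 CPM, ratio 0.922) and for the summed radial glia markers (10300 against 11500 to 11800 CPM, ratio 0.834). It was the only AB library with a read of CR388079.2 (0.0349 CPM, ratio 1.0). AB male replicate 2 was the lowest for si:dkey-169i5.4 (2.64 against 4.26 to 4.64 CPM, ratio 0.842) and for the summed skin epithelium markers (375 against 423 to 432 CPM, ratio 0.86). AB female replicate 1 was the highest for lcp1 (9.40 against 7.73 to 7.89 CPM, ratio 0.896). The summed skeletal muscle markers, highest in AB male replicate 2, had a ratio of 0.794 on this scale, under the limit, and of 0.954, above it, on CPM, a scale added after seeing the data.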

How the results depend on the processing

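Pools limit these results: with 4 AB libraries, the rule can only gain genes when a library is left out, so those settings do not test it. The count of AB-specific genes was 844 to 1058 over the 16 fits that each left out 1 library (442 to 595 higher, 394 to 512 lower). It was 1489 without SH (849 higher, 640 lower), 1830 without LSB (828 and 1002) and 1346 without HSB (674 and 672). After rescaling of the libraries 832 genes met the rule, 698 of them the same genes in the same direction. Of 109 named members that were checked singly, 9 were lost and 0 reversed. Those 9 were glula, gabrp, ehd1a, mtpn, aldocb, cat, hspd1, gabrd and znf346. Not checked in this way were the OXPHOS members NDUFB3, ndufa1, ndufv1, sdhb and atp5a1, and trim2a, trim23, trim13 and zgc:112970. Nor were smc1a, ITGAL, fah, tfr1b, cthl, grp, pygl, epm2a, tcap and pgam2. Ranges compared within each sex can also only add genes, and the count was then 1110. Names with opposite copies numbered 18 to 19 and their overlapping sums 13 to 15 over single libraries left out. Sums overlapped in 22 of 27 such names without SH, and in 20 of 26 both without LSB and without HSB. Limma calls against the mean of the other strains ranged from 2633 (without AB female replicate 2) to 4438 (without LSB female replicate 2). Of these, 1154 to 1995 were higher and 1350 to 2443 lower. Without LSB they were 5650, of which 3302 were lower. Calls against SH were 4522 to 6706, against LSB 2801 to 4523 and against HSB 2292 to 3637. Genes whose sex difference was particular to AB numbered 0 to 47 over single libraries left out, and 1 without both LSB libraries numbered 2. The replicate numbers showed no pairing common to all groups (correlations of deviations from -0.22 to 0.31, over 0.1 in 5 of 28 pairs of groups). The highest correlation was that of HSB females with HSB males, and pairing within single pairs of groups was not tested. With a replicate block limma called 3739 genes. Low depth limits genes under about 1 CPM, where a library holds few reads. The causes of these shifts were not tested.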
